A study of Mus musculus with 2 samples.

Results

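Imprinted genes were examined in open-chromatin maps of the embryonic mouse liver. The set was a list of 39 genes chosen by name from known imprinted clusters, 33 of them protein-coding and 6 non-coding, beside 21938 protein-coding and 10155 long non-coding RNA genes of the annotation. They fall into 16 clusters, and 24 windows at their known or likely control regions were read with them. The data came from DNase-seq, which sequences the ends left by DNase I, a nuclease that reaches open chromatin more readily than packed chromatin. Liver came from B6NCrl embryos of embryonic day 11.5, with both sexes pooled and no genetic change or treatment given in the labels. The series holds 2 libraries, technical replicates 7 and 1 of a single biological sample, so no group comparison exists, no value has a biological error and no test was made.

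Imprinted genes are expressed mainly from the copy inherited from the mother or mainly from the copy inherited from the father. Most lie in clusters around a control region whose DNA is methylated on one parental copy, and many clusters hold a long non-coding RNA that is made from the other copy. Placenta and liver of the embryo express many of them, among them the growth factor gene Igf2 and its partner H19. DNase-seq as deposited here gives no parental copy: a peak may come from either copy or from both.

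Each library has a list of peaks, which are narrow maxima of DNase cutting, each with the authors' density of cuts. The list of replicate 7 held 86036 peaks and that of replicate 1 held 42422. Densities were scaled separately, so a peak is also given by its rank percentile, where 100 is the densest peak of its own library. Replicate 7 lists many more weak peaks, which raises percentiles there, so ranks were compared within a library only. A region is called shared where peaks of both libraries overlap by at least 1 bp, and a start peak lies within 1 kb of an annotated transcript start. Hotspots are broader regions of raised cutting, and footprints are short protected stretches inside them. Of markers for the tissue, 2 of 6 hepatoblast genes (Foxa3 and Cebpa) and 4 of 6 erythroid genes (Tfrc, Epor, Klf1 and Gata1) had shared start peaks, while the hepatoblast gene Alb and the embryonic globin gene Hbb-y had none in either library. Myod1, a muscle gene, had a shared start peak at percentiles of 54.8 in replicate 7 and 4.74 in replicate 1. Neurod1, a neuronal gene, had one in replicate 7 only (percentile 13.3), as did the hepatoblast genes Afp, Hnf4a and Ttr and the embryonic globin gene Hba-x, and Krt14 and Cdx2 had none.

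The control region upstream of H19 is known for binding CTCF, a protein that blocks contacts between enhancers and promoters, and the letters of its motif mark where the open sites lie. The window 2 to 5 kb upstream of the H19 start held 4 matches to the CTCF motif, all on the strand of H19. They are given 5′ to 3′ on that strand (minus strand of chromosome 7, GRCm38), from the farthest upstream to the nearest, with the match in capitals. They lie at chr7:142582016-142582065, chr7:142581772-142581821, chr7:142580746-142580795 and chr7:142580291-142580340, all intergenic.
H19 CTCF match 1: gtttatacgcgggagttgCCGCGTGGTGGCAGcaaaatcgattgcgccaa
H19 CTCF match 2: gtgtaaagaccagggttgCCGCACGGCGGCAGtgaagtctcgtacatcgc
H19 CTCF match 3: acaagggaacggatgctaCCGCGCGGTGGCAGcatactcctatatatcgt
H19 CTCF match 4: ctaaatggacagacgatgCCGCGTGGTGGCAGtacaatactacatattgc

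Replicate 7 had 3 peaks in this window, with densities of 0.733 at 3664 bp, 0.861 at 2618 bp and 0.913 at 2165 bp upstream of the start. Each of them held 1 of the CTCF matches, in order the matches 2, 3 and 4. Match 1 lay in no peak and no hotspot of either library. In replicate 1, only the site nearest to H19 was listed, at a density of 1.12 and a percentile of 42.0, although hotspots of that library covered the matches 2 and 3 as well. Footprints of replicate 7 lay on the matches 2 and 3, and a footprint of replicate 1 lay on match 4. The matches 1, 2 and 4 overlap the letters TGCCGC or their reverse complement, which belong to another motif described below. A CTCF match was present in 15.7% of all distal peaks of replicate 7 and in 7.48% of all peaks near starts, taking 300 bp around each peak centre. That span was used for all such shares of peaks below.

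At Peg3, a paternally expressed zinc finger gene, the control region is known for a run of YY1 motifs in the first intron. The window from 1 kb upstream to 4 kb downstream of the Peg3 start held 10 matches to CGCCATNTT, searched on both strands, and all 10 lay on the strand of Peg3. They are given on that strand (minus strand of chromosome 7, GRCm38), from the match nearest to the start, chr7:6729577-6729609, to the farthest, chr7:6727289-6727321, with the match in capitals. All lie in the intron of Peg3.
Peg3 YY1 match 1: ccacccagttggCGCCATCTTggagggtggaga
Peg3 YY1 match 2: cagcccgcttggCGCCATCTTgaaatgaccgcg
Peg3 YY1 match 3: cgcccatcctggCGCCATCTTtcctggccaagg
Peg3 YY1 match 4: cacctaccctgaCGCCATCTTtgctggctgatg
Peg3 YY1 match 5: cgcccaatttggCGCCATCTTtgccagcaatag
Peg3 YY1 match 6: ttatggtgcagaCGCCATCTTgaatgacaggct
Peg3 YY1 match 7: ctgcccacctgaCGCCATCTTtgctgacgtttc
Peg3 YY1 match 8: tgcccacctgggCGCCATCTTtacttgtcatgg
Peg3 YY1 match 9: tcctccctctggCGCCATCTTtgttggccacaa
Peg3 YY1 match 10: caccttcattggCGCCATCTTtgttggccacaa

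Of the 24 windows this one, which is among the longer ones, held the most peaks. A hotspot of 3537 bp in replicate 7 and of 3446 bp in replicate 1 covered most of its 5001 bp, and each library had 7 peaks in the window. The 5 peaks of replicate 7 inside the intron all held the YY1 letters, and 9 of the 10 matches lay in a peak of replicate 7 and 8 in a peak of replicate 1. The densest of replicate 7 was centred 842 bp downstream of the start, at 2.74 (percentile 91.0), and the overlapping peak of replicate 1 was at 2.04 (percentile 73.6). In replicate 1 the densest was instead the peak at the start itself, at 2.19 (percentile 76.2), where replicate 7 had 1.86. Going into the intron, the densities of replicate 7 were 2.74, 2.03, 1.77, 1.01 and 0.977, so the sites became weaker with distance from the start. In replicate 1 the intron peaks ran from 2.04 at 827 bp to 0.727 at 2857 bp. Footprints of replicate 1 lay on 3 of the 10 matches and footprints of replicate 7 on 0. The YY1 letters were present in 3.24% of all peaks near starts and in 0.633% of all distal peaks.

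Other letters mark the remaining regions. TGCCGC, searched on both strands, is the sequence that the zinc finger protein ZFP57 binds when it is methylated, and ZFP57 is known for keeping the methylation of imprinted control regions. TGACGTCA is the cAMP response element, known from the Meg3 promoter. The peaks of replicate 7 below are given 5′ to 3′ on the strand of the named gene, up to 300 bases around the summit, with TGCCGC and its reverse complement in capitals for the IG, Snrpn, Mest and Rasgrf1 peaks, the cAMP response element in capitals for Meg3, and bases under footprints of both libraries in capitals for Kcnq1ot1 and Airn. Their places in GRCm38 are chr7:143296456-143296755 (minus strand, in an intron of Kcnq1), chr12:109527513-109527745 (plus, intergenic), chr12:109540762-109541061 (plus, at the Meg3 start), chr17:12741181-12741437 (plus, in an intron of Igf2r), chr7:60005014-60005262 (minus, at a Snrpn start), chr6:30737909-30738208 (plus, at a Mest start) and chr9:89879677-89879976 (plus, intergenic).
Kcnq1ot1 start peak: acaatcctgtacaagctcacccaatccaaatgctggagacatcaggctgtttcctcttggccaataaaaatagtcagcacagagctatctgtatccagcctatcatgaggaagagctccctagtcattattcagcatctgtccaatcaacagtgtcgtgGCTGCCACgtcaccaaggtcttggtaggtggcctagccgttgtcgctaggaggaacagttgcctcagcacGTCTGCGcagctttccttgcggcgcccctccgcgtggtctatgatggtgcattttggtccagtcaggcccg
IG peak: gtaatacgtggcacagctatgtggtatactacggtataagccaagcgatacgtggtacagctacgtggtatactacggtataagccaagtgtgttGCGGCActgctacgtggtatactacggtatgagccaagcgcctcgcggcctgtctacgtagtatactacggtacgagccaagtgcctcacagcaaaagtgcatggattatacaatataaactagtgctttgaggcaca
Meg3 start peak: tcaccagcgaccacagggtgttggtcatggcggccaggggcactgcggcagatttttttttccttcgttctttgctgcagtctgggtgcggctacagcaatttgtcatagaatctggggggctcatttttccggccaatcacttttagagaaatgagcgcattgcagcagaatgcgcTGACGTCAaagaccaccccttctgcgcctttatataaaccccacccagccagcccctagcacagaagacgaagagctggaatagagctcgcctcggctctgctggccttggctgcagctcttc
Airn start peak: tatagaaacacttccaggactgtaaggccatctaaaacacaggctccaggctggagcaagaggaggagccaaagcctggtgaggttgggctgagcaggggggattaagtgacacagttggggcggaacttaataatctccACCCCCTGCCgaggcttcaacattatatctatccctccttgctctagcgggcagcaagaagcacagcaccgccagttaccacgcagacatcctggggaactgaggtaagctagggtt
Snrpn start peak: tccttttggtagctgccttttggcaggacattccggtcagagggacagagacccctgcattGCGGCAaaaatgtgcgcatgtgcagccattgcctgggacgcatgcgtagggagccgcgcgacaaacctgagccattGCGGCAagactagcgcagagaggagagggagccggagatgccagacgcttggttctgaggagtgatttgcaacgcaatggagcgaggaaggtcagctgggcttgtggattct
Mest start peak: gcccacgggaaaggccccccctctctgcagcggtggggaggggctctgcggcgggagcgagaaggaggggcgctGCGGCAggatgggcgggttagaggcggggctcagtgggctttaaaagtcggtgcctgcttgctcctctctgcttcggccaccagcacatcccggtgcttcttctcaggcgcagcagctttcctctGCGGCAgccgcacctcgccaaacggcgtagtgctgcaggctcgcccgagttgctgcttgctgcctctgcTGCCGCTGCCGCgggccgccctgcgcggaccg
Rasgrf1 upstream peak: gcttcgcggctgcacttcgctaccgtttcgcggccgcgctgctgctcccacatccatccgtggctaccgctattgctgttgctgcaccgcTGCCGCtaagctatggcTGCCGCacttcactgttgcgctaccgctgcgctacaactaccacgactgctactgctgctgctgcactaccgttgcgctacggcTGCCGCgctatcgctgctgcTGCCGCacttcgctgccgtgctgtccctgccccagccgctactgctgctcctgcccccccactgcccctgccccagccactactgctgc

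Of the 24 control regions, 18 held a shared peak, 4 held a peak in replicate 7 only and 2 held none. Of the windows, 20 span 1 kb each side of annotated starts, and 16 of these held a shared peak, where 59.2% of protein-coding genes have one at a start. These are unlike units, because the 59.2% counts each gene once over all its starts. The 20 windows include several of Grb10 and of Gnas and some non-coding starts, and 21.2% of long non-coding RNA genes have a shared start peak. The best known 8, from the H19 region to the Mest start, gave 6 shared peaks and 2 in replicate 7 only. Kcnq1ot1 is the antisense RNA that silences its neighbours, and its promoter had the densest peak of the control regions at non-coding starts. It was at 2.17 (percentile 88.1) in replicate 7 and at 1.58 (percentile 62.6) in replicate 1, with 2 of the footprints shared between the libraries. The promoter of Airn, the antisense RNA that silences Igf2r, had its densest peaks at 1.31 (percentile 78.5) in replicate 7 and 1.10 (percentile 40.6) in replicate 1. Those 2 peaks did not overlap: the peak of replicate 7 was shared through a weaker one of replicate 1, at 0.960. The opposite promoter of Igf2r, the receptor that clears IGF2, was at 2.05 (percentile 87.4) and 1.82 (percentile 69.0).

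In the Dlk1-Dio3 cluster the control regions were open in the list of replicate 7 alone. The IG region, the intergenic control region upstream of Meg3, had 1 peak, 13370 bp upstream of the Meg3 start, at 1.08 (percentile 73.1) in replicate 7, and neither a peak nor a hotspot in replicate 1. It held 1 of the 10 TGCCGC matches of that window, and the other 9 lay outside any peak. The Meg3 promoter was at 0.829 (percentile 63.5) in replicate 7. Replicate 1 had a hotspot there, a footprint on the cAMP response element, and a peak of 0.909 in its longer list, but none in the shorter list used throughout.

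Snrpn and Mest held the most matches to TGCCGC of the windows at starts, and Snrpn had the least dense best peak of the 18 shared control regions in both libraries. Snrpn, whose start lies in the control region of the Prader-Willi syndrome domain, had low peaks at 0.633 (percentile 50.7) and 0.397 (percentile 18.2) in replicate 7 and at 0.747, 0.667 and 0.646 (percentiles 11.4, 5.85 and 4.74) in replicate 1. The start of Mest, a paternally expressed gene of the hydrolase fold family, had a peak at 0.681 in replicate 7 and 1.44 in replicate 1, beside a denser one upstream, 927 bp away at 1.21 and 980 bp away at 1.52. Their windows of 2001 bp held 10 and 12 matches to TGCCGC. At the CpG-richest start of 21938 protein-coding genes, windows of this length held a median of 0 matches; 10 or more were found in 0.0365% of them and 12 or more in 0.00912%, with Snrpn and Mest themselves counted. Plagl1 and Nnat had 6 each (6 or more in 0.552%), and the windows of Impact and Zrsr1 had 0. Across the control regions, 27 of 49 peaks of replicate 7 (55.1%) had TGCCGC in the 300 bp around the peak centre, which can reach beyond a short peak. This was so for 21.2% of all peaks near starts and 6.78% of all distal peaks.

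**Figure D1:**
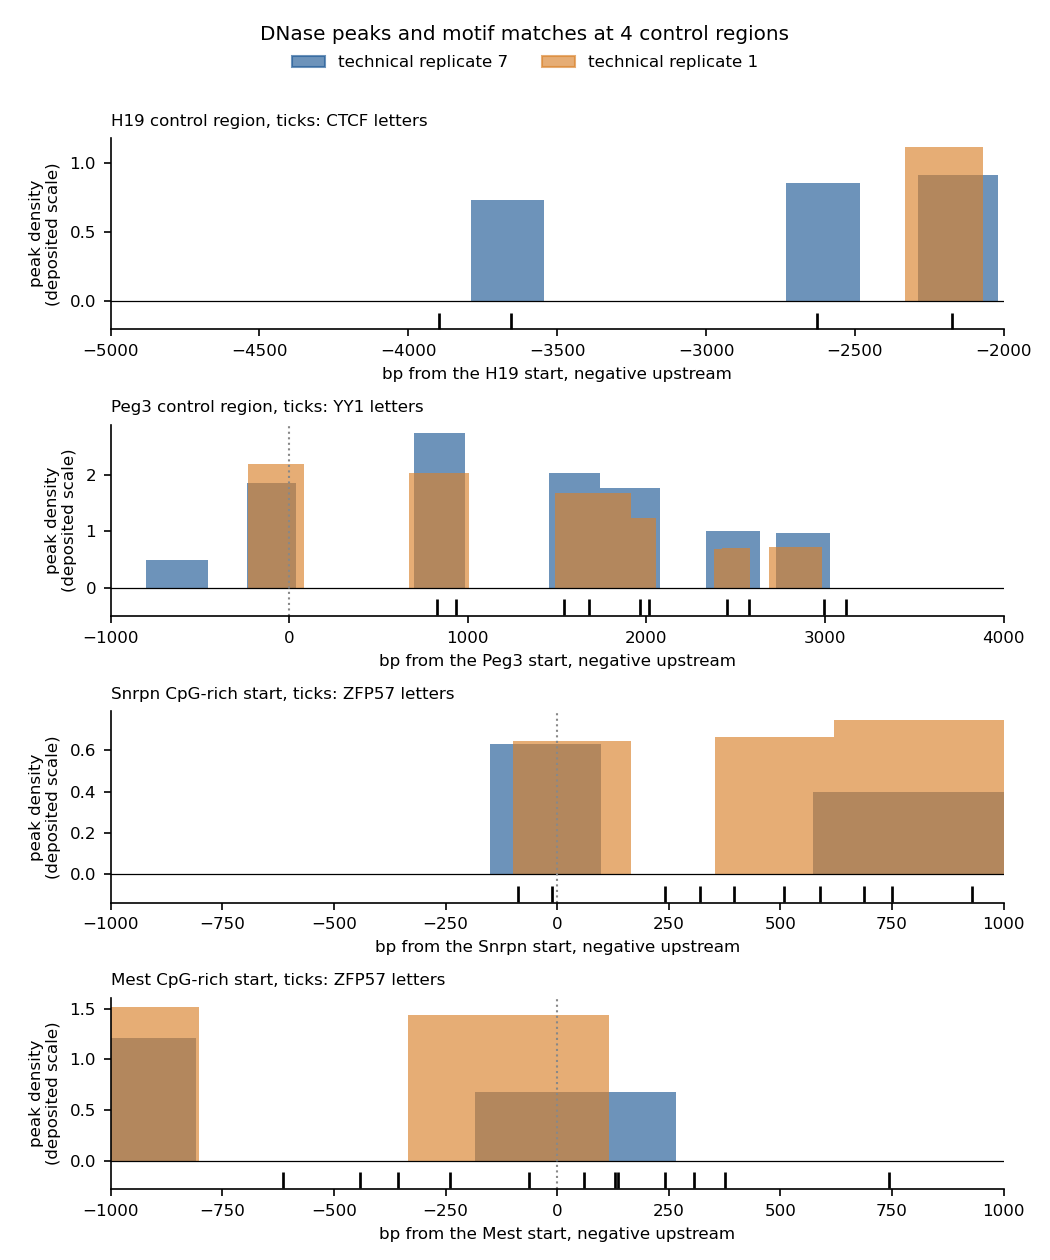
Peaks at 4 control regions, drawn from their distance to the gene's start in bp (x axis, negative upstream) and their density on the deposited scale of each library (y axis), with ticks for motif matches. Peaks of technical replicate 7 lie on 3 of the 4 CTCF matches at H19 and on 9 of the 10 YY1 matches at Peg3; densities of the libraries are scaled separately and bar heights compare only within a colour.

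The next windows, apart from the Cdkn1c promoter, were placed at the gene's CpG-rich start, so their peaks lie near it by construction. Each of these windows held a shared peak. A CpG-rich start here is the annotated start with the most CpG within 500 bp each side, which need not be rich in CpG. For Impact the CpG-rich start is the only start in the basic annotation used, at chr18:12971923. The annotated gene begins further upstream, at chr18:12955852, and that end was not read as a start. The start used had 18 CpG in that span, against 46 at Zrsr1, the next lowest here. Plagl1, a zinc finger gene that restrains growth, was at 1.05 in replicate 7 and 0.939 in replicate 1. Peg10 and Sgce share a start region, where the densest peak of replicate 1, at 1.46, overlapped one of 1.04 in replicate 7; the densest of replicate 7, at 1.07, lay 833 bp inside Peg10 and was not shared. Nnat, a small membrane protein gene, was at 0.769 and 0.929, and both libraries' peaks held the NRF1 letters GCGCATGCG at 1 site that reads on both strands; these letters were present in 1.87% of all peaks near starts. Zrsr1, a retrogene of a splicing factor, was densest 948 bp inside the gene, at 1.33 and 1.63, and that peak also held 1 such NRF1 site, with footprints of both libraries on it. Impact, a regulator of translation, was at 1.47 and 1.12, and Mcts2, a retrogene inside H13, at 2.66 and 2.21. Cdkn1c, an inhibitor of the cell cycle that is silenced by Kcnq1ot1 on the paternal copy, had a promoter peak at 2.44 (percentile 89.7) and 2.69 (percentile 82.5).

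Grb10 and Gnas use several promoters, and these differed. Grb10 encodes an adaptor that dampens insulin signalling. Its CpG-rich start was open at 1.17 and 1.20, and the 2 start windows further downstream had no peak in either library. Positions listed at an FDR under 0.05 in replicate 1 nevertheless covered 605 bp of the last window (30.2%), against 1.36% of the genome. At Gnas, the gene of the stimulatory G protein alpha subunit, the promoters lie in the order Nesp, Gnasxl, exon 1A and Gnas proper along the locus. The densest peaks in that order were 0.769, 0.841, 1.10 and 1.95 in replicate 7, and 0.950, none, 1.42 and 2.70 in replicate 1. Of these promoters, the Gnas promoter itself was thus the most open in both libraries. The Gnasxl promoter was missing from the shorter peak list of replicate 1 only: that library had a hotspot, 4 footprints and a peak of its longer list there. Nespas, the antisense RNA of the locus, had a shared start peak at percentiles of 90.2 and 78.9, against 86.7 and 82.7 for the Gnas promoter.

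The upstream control region of Rasgrf1, a Ras exchange factor known for its repeat, was the weakest of those with a peak. Its peak lay 30076 bp upstream of the start at a density of 0.393 (percentile 17.3) in replicate 7, and replicate 1 had neither a peak nor a hotspot there. The whole peak held 5 TGCCGC matches.

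Of the 39 genes, 31 (79.5%) had a shared start peak, 35 (89.7%) had a start peak in replicate 7 and 31 in replicate 1. For the protein-coding genes the shared count was 28 of 33 (84.8%), against the 59.2% of all protein-coding genes. By library, 31 of 33 (93.9%) had a start peak in replicate 7, against 65.3%, and 28 in replicate 1, against 59.9%. Of the 6 non-coding genes 3 had a shared start peak, namely H19, Kcnq1ot1 and Airn, against 21.2% of long non-coding RNA genes. The background for these was 29.6% in replicate 7, where 4 had one, and 22.0% in replicate 1, where 3 had one. Footprints of both libraries within 1 kb of a start were found for 28 of 33 protein-coding genes (background 58.7%) and 3 of 6 non-coding genes (background 21.8%).

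Where these start peaks were present, they ranked lower than those of most genes. Taking each library's own strongest start peak, the 31 genes with a shared one had a median percentile of 78.5 in replicate 7 and 58.9 in replicate 1, and 12996 such protein-coding genes had medians of 92.1 and 82.8. In 23 of the 31 genes these strongest peaks of the libraries overlapped each other; in Igf2, Ascl2, Peg3, Usp29, Airn, Snrpn, Peg10 and Sgce they lay at different places near the starts. When only the stronger 50% of each library's peaks were kept, 18 of the 31 genes (58.1%) still had a shared start peak, against 83.5% of the protein-coding genes. Counted over all genes, that left 18 of 39 (46.2%), or 16 of the 33 protein-coding ones (48.5%), beside 49.5% of protein-coding genes, so the excess over the background in the full lists was not seen among the stronger peaks. The spread within the set was wide. At the top, Copg2, a coat protein gene beside Mest, was at 4.80 (percentile 97.5) in replicate 7 and 4.03 (94.6) in replicate 1, and Ube3a, the ubiquitin ligase of Angelman syndrome, at 4.77 (97.5) and 3.91 (93.9). H13, a signal peptide peptidase gene, was at 3.60 and 3.34, and Commd1, a gene of copper handling, at 3.04 and 3.16. Lowest of the shared starts was Kcnq1, a potassium channel gene, at 0.441 (percentile 26.8) and 0.677 (percentile 6.39).

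**Figure D2:**
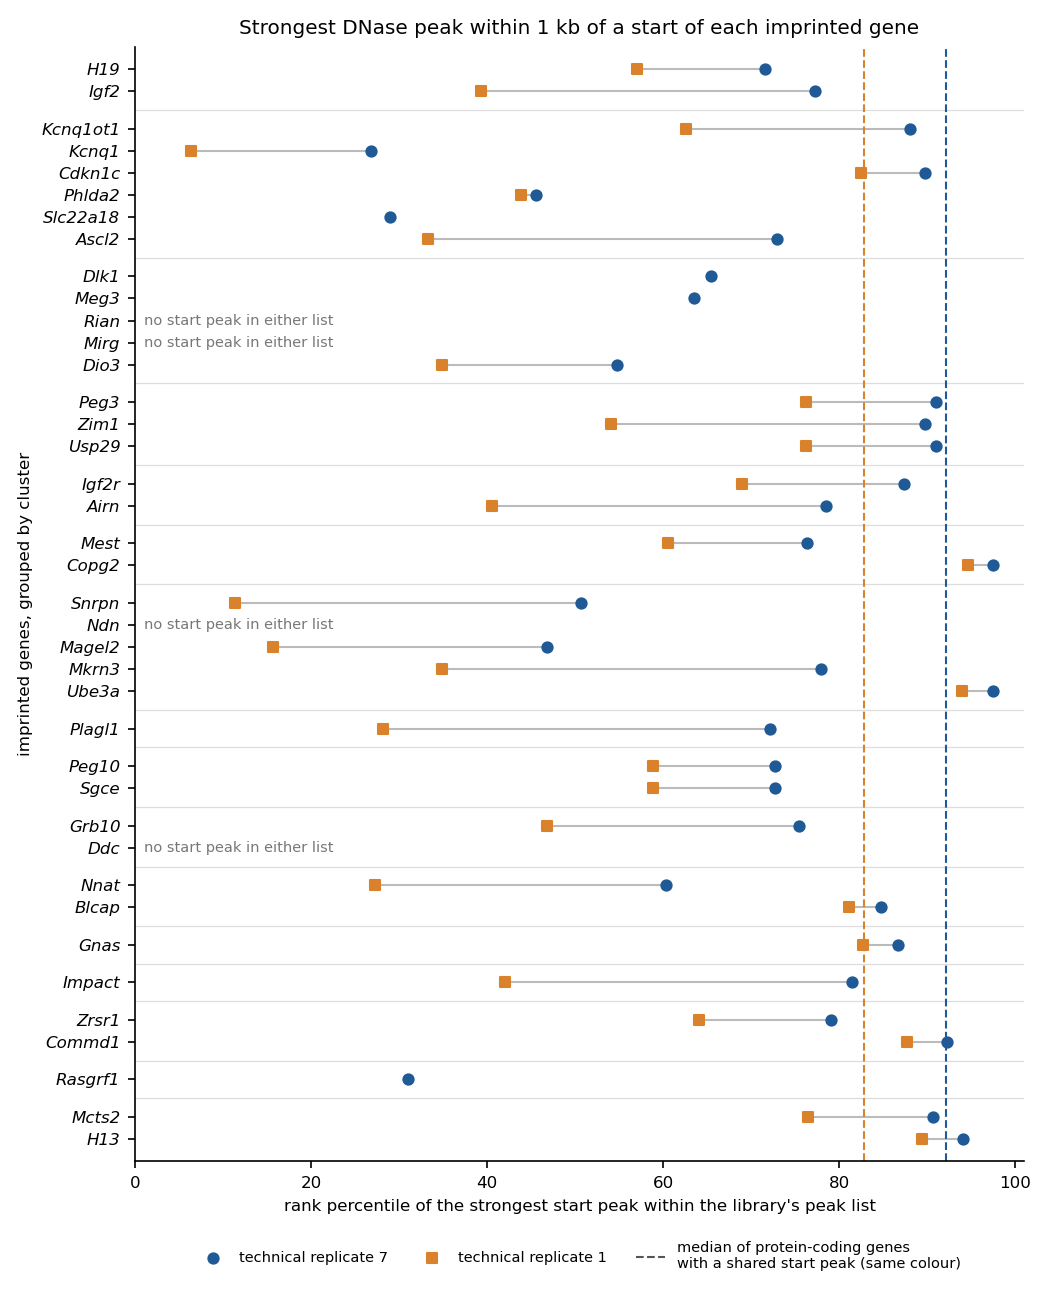
Rank percentile of the strongest start peak of each of the 39 imprinted genes (x axis) in technical replicate 7 (circles) and technical replicate 1 (squares), grouped by cluster, with dashed medians of protein-coding genes that have a shared start peak. Only Copg2, Ube3a, H13 and Commd1 lie above the medians of both libraries, 92.1 and 82.8, and Rian, Mirg, Ndn and Ddc have no start peak.

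In 4 genes the start peak was listed for replicate 7 alone. Dlk1, a Notch-family ligand made by hepatoblasts, was at 0.869 (percentile 65.4), and replicate 1 had a peak of 0.970 at the same place in its longer list. Meg3 behaved the same way, as given above. Slc22a18, a transporter gene, had 2 low peaks, at 0.453 and 0.405, and Rasgrf1 also had 2, at 0.465 and 0.356; neither gene had a start peak in either list of replicate 1. Rian, Mirg, Ndn and Ddc had no start peak in any of the lists. For Ndn this holds for its only start in the basic annotation, and a shared peak lay inside the gene, 1710 bp from that start. Rian and Mirg are RNA genes downstream of Meg3 that host small RNAs, Ndn is a neuronal growth regulator, and Ddc is the decarboxylase of dopamine and serotonin synthesis. The body of Rian and its 50 kb flanks held 0 peaks in either library. That of Ddc was different: it held 24 peaks of replicate 7 and 7 of replicate 1, all away from its own starts.

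The other genes lay between these ends. H19 was at 1.03 (percentile 71.6) in replicate 7 and 1.41 (57.0) in replicate 1. Igf2, whose 5 annotated starts drew 6 peaks in replicate 7 and 3 in replicate 1, was at 1.24 (77.2) and 1.08 (39.3), in peaks that did not overlap. In the Kcnq1ot1 cluster, Ascl2, a placental transcription factor gene, was at 1.08 and 1.00, and Phlda2, a placental growth restrainer, at 0.577 and 1.15. Dio3, which inactivates thyroid hormone, was at 0.685 and 1.02. Peg3 and Usp29, a ubiquitin protease gene, face away from each other and share their start region, and Zim1, a zinc finger gene, was at 2.44 (percentile 89.7) and 1.34 (percentile 54.1). In the Snrpn cluster, Magel2 was at 0.589 and 0.798 and Mkrn3, a ring finger gene, at 1.28 and 1.02, both far under Ube3a.

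The gene bodies of 6 pairs of these genes overlap, and in none of the pairs did the order of the 2 start peaks differ between libraries. In 4 of the 6 the longer gene had the stronger start: H13 over Mcts2, Commd1 over Zrsr1, Blcap over Nnat, and Copg2 over Mest. The widest such gap was at Blcap, a gene of apoptosis control, at percentiles of 84.7 and 81.1, against 60.3 and 27.3 for Nnat. In the other 2 pairs, both with a silencing antisense RNA, the shorter gene had the stronger start. Kcnq1ot1 was at 88.1 and 62.6 against 26.8 and 6.39 for Kcnq1, whereas Igf2r was at 87.4 and 69.0 against 78.5 and 40.6 for Airn. The silencing RNA thus had the stronger start in the Kcnq1 pair and the weaker in the Igf2r pair. These pairs were compared after their values had been seen.

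**Figure D3:**
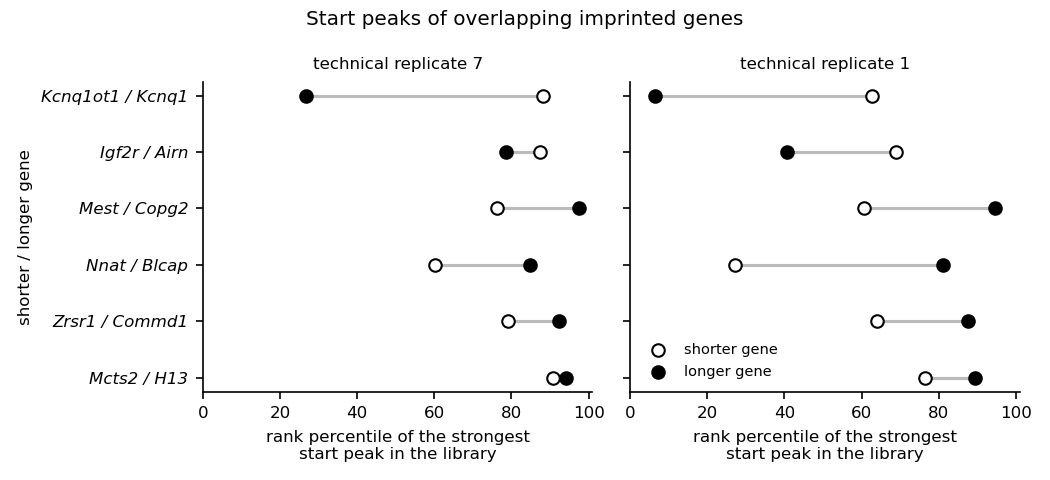
Rank percentile of the strongest start peak (x axis) for the shorter (open circles) and longer gene (filled circles) of the 6 overlapping pairs, in technical replicate 7 (left) and technical replicate 1 (right). The order within each pair is the same in both libraries, with the longer gene ahead in the 4 lower pairs.

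The gene bodies and their 50 kb flanks, 4488 kb in all, held 349 peaks of replicate 7 and 185 of replicate 1, which formed 139 shared regions. The median gene of the set had 2.71 shared regions per 100 kb, and the median protein-coding gene 2.66. The lower quartiles were 1.83 and 0.815, and the median numbers of distal shared regions were 2 and 1. Clusters differed widely. The Mcts2-H13 neighbourhood had 10.8 shared regions per 100 kb, that of Plagl1 0.584 and that of Rasgrf1 0.461. Of the shared regions, 63 were distal, over 1 kb from any annotated start, and 14 of the clusters had at least 1.

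**Figure D4:**
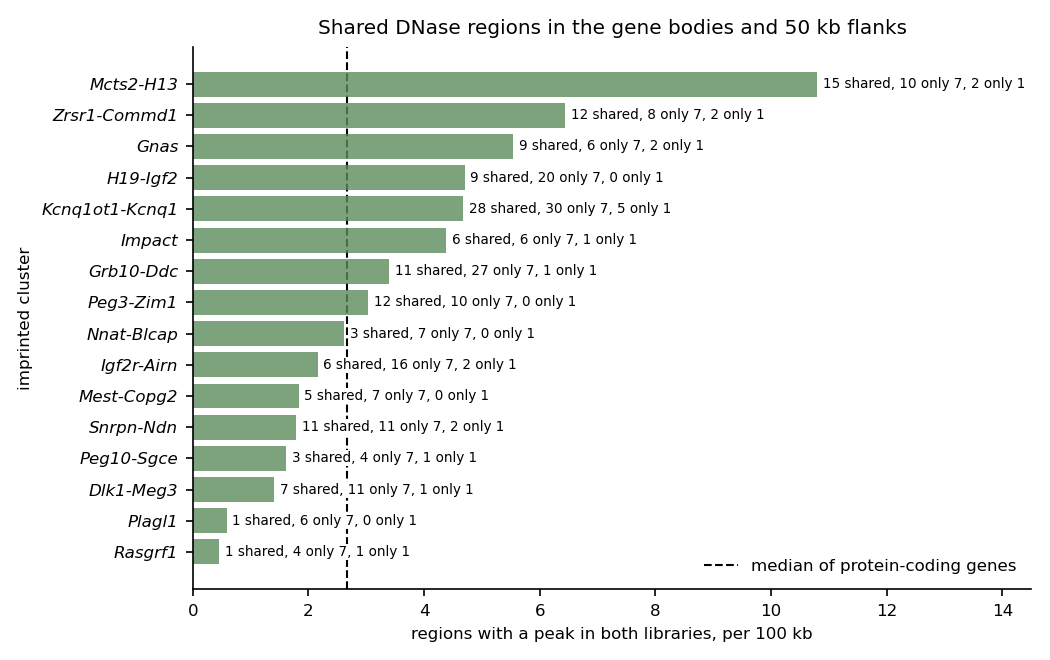
Shared regions per 100 kb of the gene bodies and 50 kb flanks of each imprinted cluster (bars), with the numbers of regions or peaks that are shared, in technical replicate 7 only and in technical replicate 1 only. The bars run from 0.461 at Rasgrf1 to 10.8 at Mcts2-H13, and the dashed line marks the median of protein-coding genes, 2.66.

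The strongest distal region of each cluster gave some of the most open sites of the set. In the Dlk1 cluster it lay 14936 bp upstream of Dlk1, at chr12:109437773-109438081, with densities of 2.79 (percentile 91.2) and 3.47 (percentile 90.6). It held a CTCF match and a GATA motif (AGATAA). It was denser than the Dlk1 start itself. Between H19 and Igf2 it lay at chr7:142610676-142611484, in an intron of Gm33148, at 2.20 (88.4) and 2.56 (81.1). At Peg10 it lay in the intron, 1920 bp from the start, at 3.21 and 2.93, with a CTCF match. This match did not enter the count of distal peaks with a CTCF match given below. The strongest of the Mcts2-H13 neighbourhood lay 1057 bp from Id1, an inhibitor of differentiation, at 3.30 and 2.97.

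At Impact it was in the gene's intron, 1956 bp from a start, at 2.60 and 3.07, denser than the start peak in both libraries. In the Grb10-Ddc neighbourhood it lay 3170 bp from Fignl1 with a GATA motif (AGATAA) inside, at 2.46 and 1.43; this motif was present in 22.6% of all distal peaks and in 24.9% of the distal peaks near these genes. Beyond Airn it lay 4345 bp from Mrgprh, at 2.06 and 1.28, and in Kcnq1 it was intronic, at 1.77 and 2.06. That of Nnat-Blcap lay 7894 bp from Platr27, at 1.74 and 1.54, with a CTCF match. Gnas had 1.22 and 1.03 for an intronic site, and Peg3 had 2.03 and 1.69 for the intron sites described above. The weakest were in Ndn, where an exon 1710 bp from its start was open at 0.885 and 0.768, in Commd1, at 0.417 and 0.848, and in Copg2, at 0.397 and 0.768. Ndn thus had a shared peak inside its annotated gene although its only start in the basic annotation, with 6 CpG in 1 kb, had none. Whether another start of Ndn lies at that peak was not tested.

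CTCF matches were also grouped between Cdkn1c and Slc22a18. There, 3 shared intergenic peaks of replicate 7, at densities of 1.28, 1.41 and 1.33, each held a match, and a further one lay inside Slc22a18 at 1.03. In all, 30 of 217 distal peaks of replicate 7 near these genes (13.8%) held a CTCF match, beside 15.7% of all distal peaks.

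Genes near the clusters or in other imprinted domains were read from a separate list of 49, of which 48 were found. Of these, 30 (62.5%) had a shared start peak, beside 59.2% of protein-coding genes, and 14 had none. The list also holds some non-coding genes and a pseudogene. The highest were Nap1l4, a histone chaperone, with a mean percentile over the libraries of 98.5, Cep41, a centrosomal protein gene, at 97.7, and Tssc4 at 96.7. Of 26 protein-coding genes of enzymes and factors that set, keep or remove imprints, 22 (84.6%) had one, beside the same 59.2%. Kdm1b, a histone demethylase of the oocyte, was at 98.9, Yy1 at 98.8 and Dnmt1, the maintenance DNA methyltransferase, at 98.5. Zfp57 itself was lower, at 53.4. Those with no start peak in either library were Dnmt3l and Dppa3, known from germ cells and early embryos, Ctcfl, the testis relative of CTCF, and Tet1, a methylcytosine oxidase.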

How the data were processed

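DNase-seq files of 2 libraries of 1 biological sample were used as deposited. The peaks carry a signal, the authors' maximum density of cuts. The deposited hotspots carry a −log10 FDR, and the deposited footprints of replicate 1 a constant 0.01, taken to be the threshold on a p-value or FDR; a further deposited list gives positions at an FDR under 0.05. Per the labels, the assembly is mm10; no aligner or caller is named in the sources used here. From each library the shorter peak list was used. The footprint lists of the libraries may come from different processing, so their numbers are not to be compared between libraries. The 39 genes and all lists were chosen with earlier results of these data known. Starts, exons and introns are from GENCODE vM21 basic, and sequences from GRCm38. Control regions are windows relative to annotated starts, not measured methylation. Every gene of the set is named; of the other lists the 3 with the highest mean percentile, and genes without a start peak where at most 5 lack one. Motifs were matched exactly on both strands. Python 3.11.15, pandas 2.3.3 and pysam 0.24.0 were used. Overlap and motif searches were tested on simulated data. Alternatives covered windows, lists, overlap and each library left out.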

Additional observations from a re-analysis of the deposited data

How the results depend on the processing

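The count of 31 of 39 genes with a shared start peak came to 25 at gene 5′ ends only, where the share of protein-coding genes was 56.3%. The excess over the background was smaller there than in the main setting. All background shares here are of protein-coding genes only, while 6 of the 39 genes are non-coding. The count came to 33 in the longer lists and with a 2500 bp window, where those shares were 61.7% and 61.1%. It was 31 without replicate 7 and 35 without replicate 1, where the shares were 59.9% and 65.3%. But it came to 18 (46.2%) among the stronger 50% of peaks, where the share of protein-coding genes was 49.5%. The 18 control regions with a shared peak came to 10 among those, and to 18 to 22 with a library left out. The 63 distal shared regions came to 29 among the stronger 50% of peaks, and to 78 to 216 with a library left out, the highest without replicate 1. Fewer peaks enter the strict setting by construction. No paired analysis was possible because the series has 1 biological sample and no groups. Sequencing depth is not given by the files, and its part in the peaks missing from replicate 1 was not tested; a peak missing from a library is missing from its list only.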

Other observations

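The list of single positions of replicate 1, which entered no count of peaks, held positions where that library had no start peak. It covered 1273 bp (8.46%) of the windows at the 14 annotated starts of Rian, and 566 bp (28.3%) of those at Rasgrf1. It covered 0 bp at the starts of Mirg, Ndn, Ddc and Slc22a18.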
